A study of Rattus norvegicus with 18 samples.

Results

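Glycolysis and hypoxia target genes were followed across 18 microarrays of cultured rat marrow cells. The list named 36 genes, and a gene was found through probe sets, the groups of short probes on an Affymetrix array, that carry its symbol and no other. Of the 36, 35 had such a probe set and 34 were tested, out of 11446 tested genes with a name. No probe set named the pyruvate kinase Pkm alone, so it was not analysed here, and Gapdh was present only as array control probe sets, which were left out of the fits. Each gene is given by its brightest probe set.

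The cells were bone marrow mesenchymal stem cells (BMSC) of Sprague-Dawley rats, grown by plating whole marrow, a method that selects only by adherence. Rats were 6 weeks old when feeding began. The normal diet (ND) was 100% basal diet, and the high-fat diet (HFD) was 60% basal diet with 20% lard, 10% sucrose and 10% egg yolk powder. Each diet was fed for 1, 2 or 4 months, with 3 arrays per diet and feeding time. The age entered for each sample equals its feeding time, and the sample labels and the series description give different passages. The labels do not say that the 3 arrays of a group came from separate animals, so a p-value measures only the spread between arrays.

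Cells short of oxygen stabilise hypoxia-inducible factor (HIF), because the prolyl hydroxylases that mark it for destruction need oxygen. HIF with its partner Arnt binds DNA at a short core sequence and raises genes for glucose uptake, glycolysis and lactate export, along with genes for mitophagy, collagen hydroxylation and growth arrest. Marrow stromal cells in culture draw much of their energy from glycolysis. Cd68, against which the genes were set, is a lysosomal glycoprotein typical of macrophages.

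Promoter windows were read to see whether genes that moved together share the HIF core letters ACGTG or GCGTG on either strand. The windows run from 250 bases before to 50 bases after a start annotated for a gene, from RefSeq on the rat assembly GRCr8. At least 1 window was available for 32 of the 36 genes. Such a start need not be the outermost end of the gene. The loci of Mxi1, Slc16a1 and Pdk1 begin at 262329274, 194805556 and 77113464, so the windows of Mxi1 and Slc16a1 printed below lie inside the gene. The first 4 sequences below belong to the genes whose slope on Cd68 was largest for its error, the fifth to a gene that fell on HFD at 2 months, and the last to the steepest called slope. They lie at chr5:138002272-138002571 on the plus strand (Slc2a1), chr3:77113264-77113563 on the plus strand (Pdk1), chr1:203154913-203155212 on the minus strand (Bnip3), chr1:262348392-262348691 on the plus strand (Mxi1), chr2:194812410-194812709 on the plus strand (Slc16a1) and chr10:106712078-106712377 on the plus strand (Slc16a3). Each is written 5′ to 3′ on the strand of its gene, with matches on either strand in capitals.
Slc2a1: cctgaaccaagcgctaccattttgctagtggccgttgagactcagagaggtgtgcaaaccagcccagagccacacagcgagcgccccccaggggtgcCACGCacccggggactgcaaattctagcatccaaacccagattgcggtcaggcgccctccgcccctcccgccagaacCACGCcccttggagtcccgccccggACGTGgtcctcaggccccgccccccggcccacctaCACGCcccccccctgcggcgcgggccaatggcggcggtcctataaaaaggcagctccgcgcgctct
Pdk1: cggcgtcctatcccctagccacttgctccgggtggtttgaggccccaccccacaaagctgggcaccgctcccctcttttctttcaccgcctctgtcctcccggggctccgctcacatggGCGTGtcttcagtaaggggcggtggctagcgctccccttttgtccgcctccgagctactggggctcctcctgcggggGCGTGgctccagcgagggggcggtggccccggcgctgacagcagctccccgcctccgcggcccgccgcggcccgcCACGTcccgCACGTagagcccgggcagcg
Bnip3: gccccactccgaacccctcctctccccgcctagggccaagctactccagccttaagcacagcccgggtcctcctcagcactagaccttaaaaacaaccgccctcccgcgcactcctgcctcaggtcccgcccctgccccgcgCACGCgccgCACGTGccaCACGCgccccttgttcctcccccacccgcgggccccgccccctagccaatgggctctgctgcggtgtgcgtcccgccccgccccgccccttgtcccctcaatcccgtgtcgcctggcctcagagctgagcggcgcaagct
Mxi1: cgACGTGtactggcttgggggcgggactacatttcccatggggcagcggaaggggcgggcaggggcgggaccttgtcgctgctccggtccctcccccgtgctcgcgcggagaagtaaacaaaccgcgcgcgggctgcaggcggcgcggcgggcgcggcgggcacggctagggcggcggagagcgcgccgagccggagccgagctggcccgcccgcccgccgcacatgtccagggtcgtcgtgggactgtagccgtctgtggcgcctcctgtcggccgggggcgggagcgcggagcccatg
Slc16a1: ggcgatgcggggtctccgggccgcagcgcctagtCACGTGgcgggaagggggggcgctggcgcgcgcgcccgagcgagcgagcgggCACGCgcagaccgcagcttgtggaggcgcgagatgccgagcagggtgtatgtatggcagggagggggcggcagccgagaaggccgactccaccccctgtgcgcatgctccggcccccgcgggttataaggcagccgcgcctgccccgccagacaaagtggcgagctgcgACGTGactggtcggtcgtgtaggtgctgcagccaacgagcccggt
Slc16a3: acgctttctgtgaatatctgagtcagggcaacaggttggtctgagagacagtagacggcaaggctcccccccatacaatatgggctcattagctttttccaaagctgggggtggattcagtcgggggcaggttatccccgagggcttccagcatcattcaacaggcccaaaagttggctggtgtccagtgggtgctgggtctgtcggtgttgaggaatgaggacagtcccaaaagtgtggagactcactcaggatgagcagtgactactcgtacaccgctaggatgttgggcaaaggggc
A match was found for 25 of the 32 genes, and in 26 of their 37 windows (70.3%), against 41.6% of all 33469 windows of the same length. The run CACGTG reads as ACGTG on both strands and counts for each. By that count Slc2a1, Pdk1, Bnip3 and Slc16a1 held 4 matches each, Mxi1 held 1 and Slc16a3 none. Of all windows 3.46% held 4 or more, and so did those of 7 of the genes. Among the 24 genes with a window that rose with Cd68, 20 had a match. Of the tested genes with a window that did not pass, Slc16a1, Hk1, Pfkm and Aldoc had a match and Adm and Egln3 had none. Whether the shares differ was not tested. A match describes these letters and does not show that HIF binds there.

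The median linear intensity of an array was between 25.4 and 27.1, and all levels below are log2 intensities. The stromal marker Thy1, which the labelled cell type carries, was high on every array, at 11.71 to 12.13, while Cd68 ranged from 4.53 to 10.78 and the leukocyte phosphatase Ptprc from 2.18 to 7.96. The 15 stromal markers measured were not all alike. Vim read 13.02 to 13.23 and Col1a1 12.04 to 12.70, but Cxcl12 ranged from 8.53 to 12.63. Eng read 5.69 to 6.68, Vcam1 2.56 to 6.77 and Lepr, too dim to be tested, 2.41 to 3.72. Of the 6 endothelial markers measured, Pecam1, Kdr, Tek, Emcn and Vwf reached at most 3.28 and Tie1 reached 4.91. Of the 6 lymphocyte markers, Cd79b, Ms4a1 and Cd3d reached at most 3.17, Cd3e 3.58, Cd2 3.83 and Lck 6.14. One array, ND 1-month replicate 1, had a displaced column that was moved back into line, and 9 of the genes (Aldoa, Bnip3l, Ddit4, Egln3, Eno1, Ldha, Pfkl, Pfkm and Tpi1) have no value on it.

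Cd68 itself differed widely inside groups. At 1 month it read 10.63, 6.51 and 4.53 on the ND arrays and 8.30, 10.03 and 8.03 on the HFD arrays. At 2 months the ND arrays read 10.68, 10.66 and 6.65 and the HFD arrays 5.21, 7.90 and 8.998. At 4 months the values were 9.74, 10.78 and 9.08 on ND and 10.29, 9.84 and 10.20 on HFD. The groups at 4 months were the narrowest. By the distance to the nearest array of the same group, ND 1-month replicate 1, which was high, and ND 2-month replicate 3, which was low, stood furthest apart.

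The first question was how far the genes follow Cd68 between arrays of the same group. All 34 tested genes had a positive slope on Cd68, and 27 of them rose with it. The slope is the change in log2 units per log2 unit of Cd68, fitted with a mean for each group in limma. Of all tested probe sets 14.6% passed this test in either direction and 8.21% upward. The median slope of the 34 genes was 0.20, with a range of 0.02 to 0.75, against a median of -0.00 over all tested probe sets. Without ND 1-month replicate 1 the number that rose was 16, while calls among all probe sets went from 3166 to 928. Without ND 2-month replicate 3 the number was 14, with 1310 calls among all probe sets. Without both, an alternative chosen after seeing the data, it was 0, with 302 calls among all probe sets. There all 34 slopes were still positive, with a median of 0.18.

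**Figure D1:**
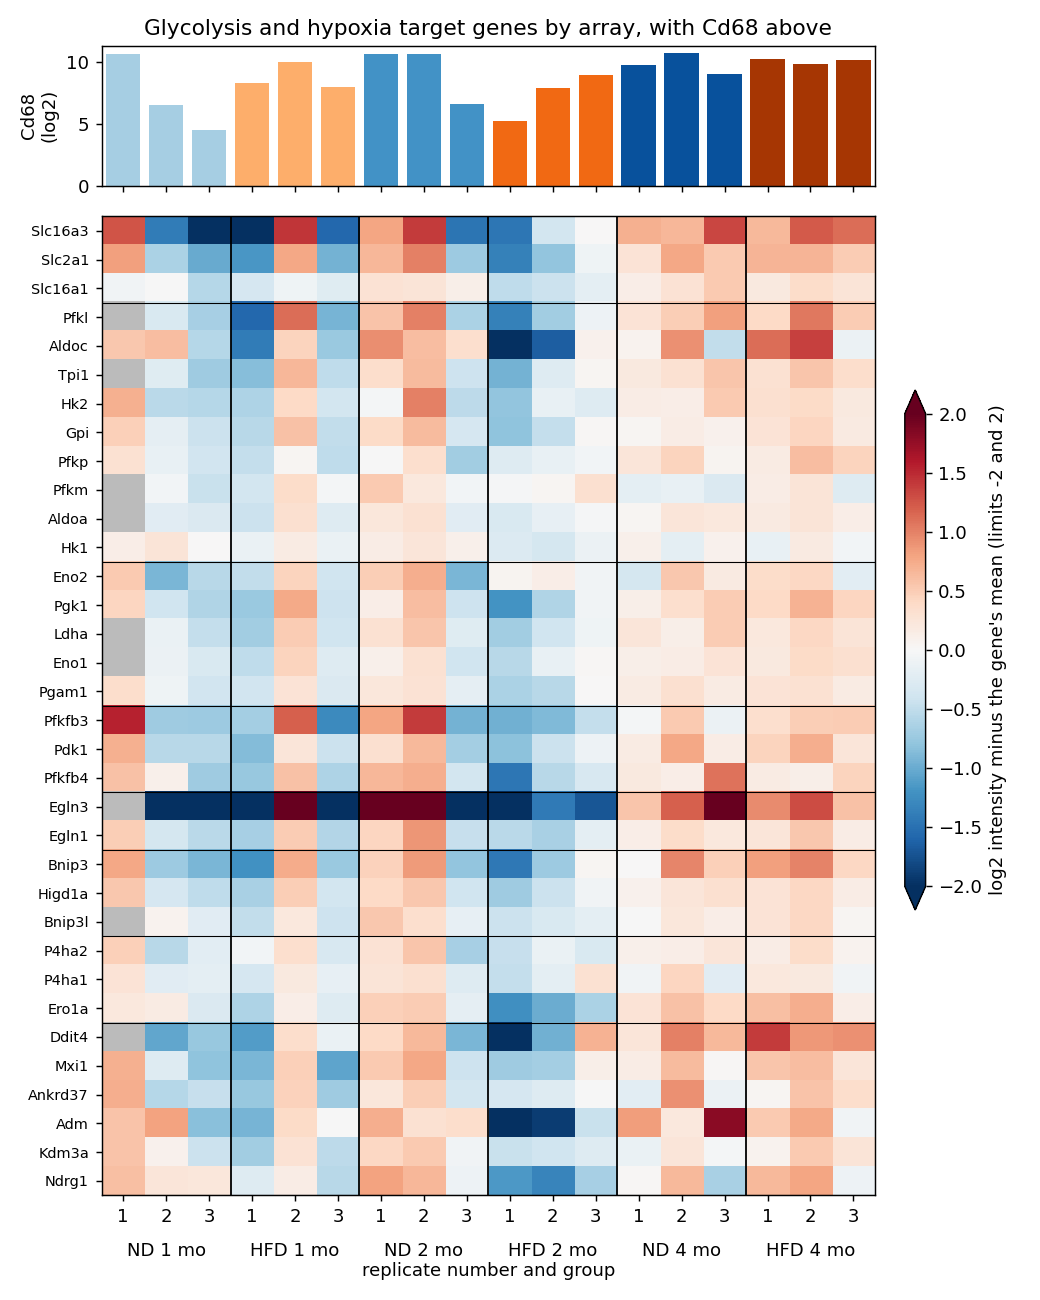
The heat map gives each of the 34 tested genes (rows, ordered by role) on each of the 18 arrays (columns, replicate number under each) as log2 intensity minus the mean of the gene over arrays, with grey cells where an array has no value, and the bars above give Cd68 in log2 intensity. Arrays with low bars are blue in most rows, such as HFD 2-month replicate 1 with Cd68 at 5.21, and arrays with high bars are red in most rows.

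Among the transporters, the glucose importer Slc2a1 (GLUT1) and the lactate exporter Slc16a3 (MCT4) rose with Cd68. Slc2a1 read 9.40, 7.96 and 7.57 on ND and 7.43, 9.36 and 7.65 on HFD at 1 month, 9.25, 9.59 and 7.85 on ND and 7.24, 7.79 and 8.50 on HFD at 2 months, and 8.87, 9.37 and 9.11 on ND and 9.27, 9.26 and 9.09 on HFD at 4 months. In each of the groups at 1 and 2 months the array with the most Cd68 was also high in Slc2a1, with ND 2-month replicates 1 and 2 nearly level in Cd68. Its slope was 0.36 ± 0.05 (SE, 18 arrays, limma adjusted p = 0.000401), which is 1.28-fold per doubling of Cd68. Slc16a3 read 10.11, 7.46 and 6.75 on ND and 6.65, 10.29 and 7.28 on HFD at 1 month, and 9.65, 10.26 and 7.39 on ND and 7.42, 8.49 and 8.86 on HFD at 2 months. Its 4-month arrays lay between 9.50 and 10.19. Its slope of 0.58 ± 0.10 (adjusted p = 0.0025), or 1.49-fold per doubling, was the steepest of those that passed. The related transporter Slc16a1 (MCT1), which carries lactate in either direction, had a slope of 0.05 ± 0.02 (adjusted p = 0.153) and did not pass.

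The enzymes of upper glycolysis, from hexokinase to triose phosphate isomerase, gave 6 rises among 9 genes. Pfkl, a phosphofructokinase subunit, rose by 0.37 ± 0.10 per log2 unit of Cd68 and ranged from 6.04 to 8.74 over arrays. Tpi1, which interconverts the triose phosphates, rose by 0.26 ± 0.06, and the inducible hexokinase Hk2 rose by 0.22 ± 0.05. Gpi, the phosphoglucose isomerase, rose by 0.19 ± 0.03, the phosphofructokinase subunit Pfkp by 0.14 ± 0.03, and the aldolase Aldoa by 0.11 ± 0.03. Pfkm, the muscle phosphofructokinase subunit, and the aldolase Aldoc had slopes of 0.12 ± 0.04 and 0.26 ± 0.09 with adjusted p of 0.0708 and 0.0828. Hk1, the hexokinase of most tissues at rest, was the flattest of the 34. It stayed between 8.32 and 8.92 on the 18 arrays, and its slope was 0.02 ± 0.02 (adjusted p = 0.673).

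All 5 tested enzymes of lower glycolysis rose, with slopes from 0.13 to 0.22. These were Eno2 and Eno1, which form phosphoenolpyruvate, Pgk1, which makes ATP, Pgam1, a phosphoglycerate mutase, and Ldha, which turns pyruvate into lactate. Eno2 rose by 0.22 ± 0.06, Pgk1 by 0.22 ± 0.05 and Ldha by 0.17 ± 0.05. The probe set used for Pgk1 is of a type that can bind related transcripts, and its other probe set had a slope of 0.24.

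The 3 regulatory enzymes of glycolytic flux all rose. Pdk1, the kinase that shuts pyruvate out of mitochondria, read 8.51, 7.24 and 7.23 on ND and 6.92, 8.03 and 7.35 on HFD at 1 month. At 2 months it read 8.10, 8.45 and 7.11 on ND and 6.97, 7.36 and 7.68 on HFD, and at 4 months all 6 arrays lay between 7.94 and 8.56. The order of the HFD arrays at 2 months was that of their Cd68 values. The slope of Pdk1 was 0.25 ± 0.04 (adjusted p = 0.000802). Pfkfb3 and Pfkfb4, which set the level of the phosphofructokinase activator fructose 2,6-bisphosphate, rose by 0.42 ± 0.07 (adjusted p = 0.00202) and 0.24 ± 0.06 (adjusted p = 0.0135).

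The oxygen sensors Egln1 and Egln3 are prolyl hydroxylases that mark HIF and are themselves HIF targets. Egln1 rose by 0.20 ± 0.04 (adjusted p = 0.00739). Egln3 had the largest slope, 0.75 ± 0.29 over 17 arrays, but did not pass (adjusted p = 0.109). It read 2.88 and 2.46 on the ND arrays with a value and 2.53, 7.79 and 2.90 on HFD at 1 month, then 7.06, 7.66 and 2.67 on ND and 2.73, 3.52 and 3.22 on HFD at 2 months, and 5.49, 6.13 and 9.11 on ND and 5.87, 6.24 and 5.52 on HFD at 4 months. No array lay between 3.52 and 5.49. Its low arrays stood near 3.22, the level below which probe sets were left out by their mean.

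**Figure D2:**
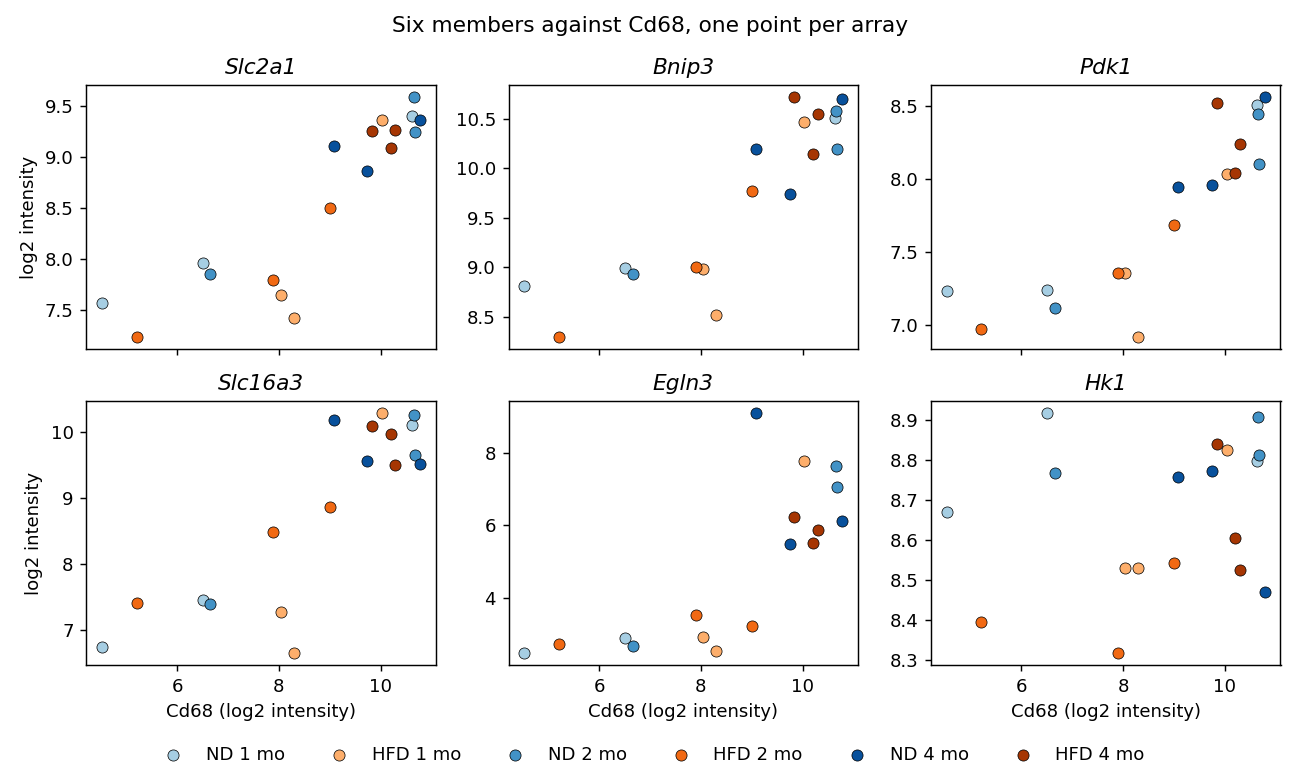
The 6 panels set the log2 intensity of Slc2a1, Bnip3, Pdk1, Slc16a3, Egln3 and Hk1 (vertical axes) against that of Cd68 (horizontal axes), with 1 point per array, coloured by diet and feeding time. Slc2a1 lies at 7.96 or below on the 7 arrays with Cd68 at 8.30 or below and at 8.50 or above on the other 11, Egln3 falls into a low and a high set of arrays, and Hk1 shows no such order.

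Genes of mitochondria and mitophagy all rose, 3 of 3. Bnip3, a receptor that tags mitochondria for removal, had a slope of 0.36 ± 0.06 (adjusted p = 0.00115) and ranged from 8.29 on HFD 2-month replicate 1 to 10.72 on HFD 4-month replicate 2. Higd1a, a small protein of the respiratory chain, rose by 0.19 ± 0.03 (adjusted p = 0.00201), and the Bnip3 relative Bnip3l (NIX) by 0.13 ± 0.04. The collagen prolyl hydroxylase subunits P4ha1 and P4ha2 rose by 0.14 ± 0.03 and 0.16 ± 0.04, and Ero1a, the oxidase that forms disulfide bonds in the endoplasmic reticulum, by 0.12 ± 0.03 (adjusted p = 0.0259).

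Of the 6 genes of stress, signalling and chromatin, 4 rose. Mxi1, which opposes Myc, had a slope of 0.27 ± 0.04 (adjusted p = 0.00136) and ranged from 6.87 to 8.69. Ddit4 (REDD1), an inhibitor of mTORC1, rose by 0.44 ± 0.10 and ranged from 6.17 to 9.82, the histone demethylase Kdm3a rose by 0.15 ± 0.03, and the ankyrin repeat gene Ankrd37 by 0.22 ± 0.05. Ndrg1, a stress-induced growth regulator, and the vasodilator peptide gene Adm had slopes of 0.14 ± 0.05 (adjusted p = 0.0889) and 0.20 ± 0.10 (adjusted p = 0.209) and did not pass.

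**Figure D3:**
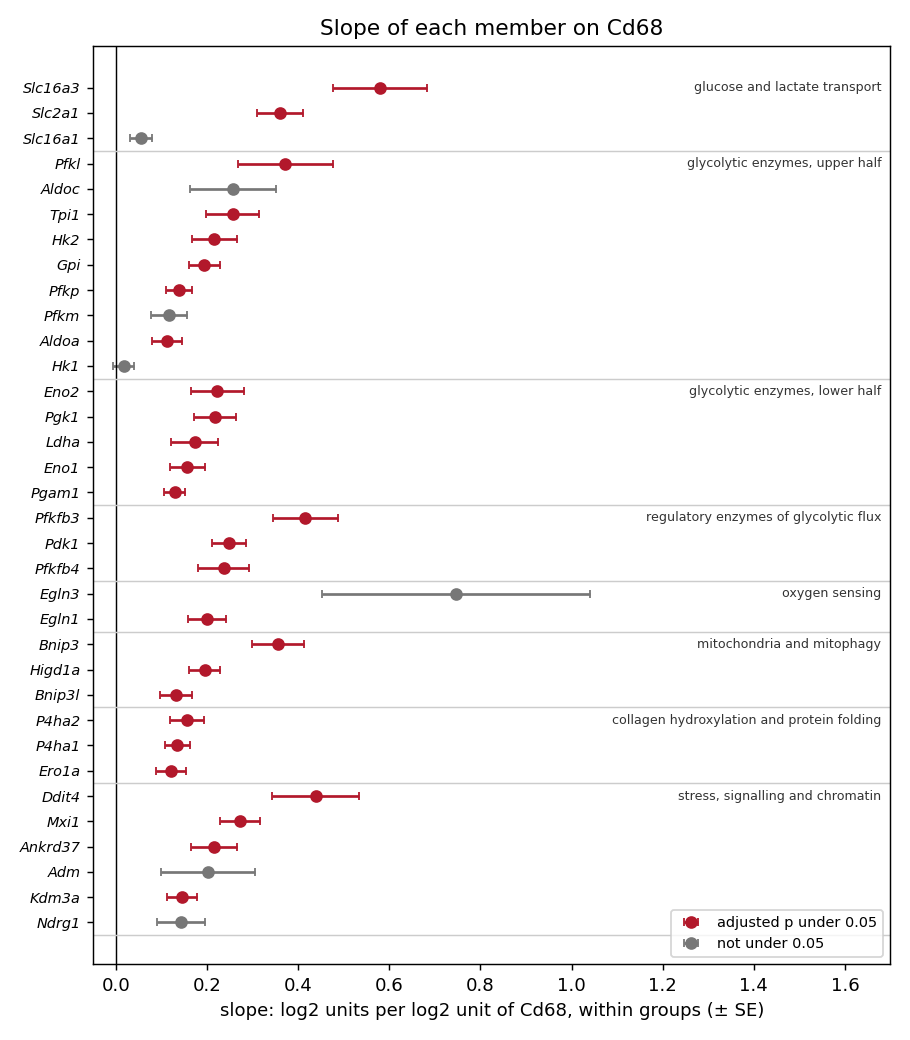
Each point is the slope of a gene on Cd68 in log2 units per log2 unit of Cd68, fitted within groups over 18 arrays, or 17 for the 9 genes with no value on ND 1-month replicate 1 (Egln3 among them), with its SE as a bar, grouped by role and red where the adjusted p was under 0.05. All 34 points lie above 0, from 0.02 for Hk1 to 0.75 for Egln3, and the bar of Egln3 is the widest.

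Other genes of the same pathways, from lists that do not overlap the 36, were mixed. Of 24 tested further genes of glycolysis and glucose use, 8 rose with Cd68, 2 fell and 14 did not pass, with a median slope of 0.01. Those that rose include the glycogen branching enzyme Gbe1, which is on both lists, at 0.19 ± 0.03 and the pentose phosphate enzyme Taldo1 at 0.18 ± 0.03. Pdk4, the pyruvate dehydrogenase kinase of fasting, fell by 0.42 ± 0.09, and Gpd1, the cytosolic glycerol phosphate dehydrogenase, fell by 0.65 ± 0.14. Of 34 tested further hypoxia targets 13 rose and none fell, among them the transferrin receptor Tfrc at 0.48 ± 0.06, the mitochondrial adenylate kinase Ak4 at 0.58 ± 0.08 and the haem oxygenase Hmox1 at 0.30 ± 0.04. Of 8 tested regulators of HIF only the HIF subunit Hif1a rose, at 0.14 ± 0.04 (adjusted p = 0.0393), while the related subunit Epas1 stood at -0.13 ± 0.09 (adjusted p = 0.384).

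Marker lists of cell types were set against Cd68 as well, and they differed. Of 25 tested macrophage and monocyte markers besides Cd68, 24 rose, with a median slope of 0.77. Of 14 stromal markers 2 rose (Nt5e at 0.30 and Eng at 0.12) and 1 fell (Pdgfrb, by 0.14), none of 21 cell cycle genes passed, and 3 of 5 adipocyte genes fell, among them Pparg, by 0.74. The 1 tested endothelial marker, Tie1, rose by 0.42 ± 0.07 (adjusted p = 0.00121), as did 1 of 3 tested lymphocyte markers, Lck, by 0.19 ± 0.03 (adjusted p = 0.00128). None of 3 granulocyte and mast cell markers and none of 2 erythroid markers passed. The mean of the macrophage list, relative to its average over arrays, ran from -3.20 on the lowest array to 1.87 on the highest. The stromal list mean ran only from -0.33 to 0.20. In bulk RNA fewer cells of a type and less RNA per cell cannot be told apart, and the part of macrophage number in the slopes of the 34 genes was not tested.

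Over all arrays, without regard to group, the correlation with Cd68 was again positive for all 34 genes. By Pearson's r 30 of 34 passed after adjustment over 21728 probe sets (100000 permutations, two-sided), against 17.1% of all tested probe sets and 8.75% upward. The coefficients ran from 0.23 to 0.89 with a median of 0.79, where the median over all probe sets was -0.06. For Slc2a1 r was 0.885 and Spearman's rho 0.878 over 18 arrays, with a permutation p of 1e-05 for r, the smallest these permutations can give (adjusted p = 0.000572). For Hk1 r was 0.233 and rho 0.214 (permutation p = 0.35, adjusted p = 0.559). Without the 2 arrays furthest from the median of Cd68, ND 1-month replicate 3 and HFD 2-month replicate 1, Slc2a1 still had r of 0.877 and the number past the threshold was 24 of 34, against 13.8% of all probe sets. Slc16a1, whose slope within groups did not pass, had r of 0.689 over all arrays (permutation adjusted p = 0.0165). Without those 2 arrays its r was 0.452 (permutation adjusted p = 0.237). With values centred on their group means and permuted within groups the median r was 0.78 and 12 of 34 passed, against 5.38% of all probe sets.

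The correlation was also read on each side of the mean of Cd68. Below the mean of Cd68 over arrays, 8.78, lay 7 arrays, a split chosen after seeing the data, and among them r ran from -0.46 to 0.57 with a median of 0.13, positive for 22 of 34 genes. Among the 11 arrays above it the median r was 0.55, positive for 33 of 34 genes. For Slc2a1 the values were 0.24 below and 0.77 above, and for Slc16a3 0.25 and 0.26. The difference between the sides was not tested, the sides span different ranges of Cd68, and in 10 of 34 genes, such as Hk2 (0.57 below and 0.33 above), r was higher below. These coefficients rest on few arrays and are given as a description.

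The next question was what 2 months of HFD changed. By their brightest probe sets all 34 genes were lower on HFD than on ND, and 3 of them fell past the threshold. The median log2 fold change was -0.62 against -0.00 over all tested probe sets. That threshold was passed by 2.54% of all tested probe sets and by 1.3% downward. Under quantile normalization 32 of the 34 were lower, with Pfkp and Eno2, both near 0, on the other side. On 8 genes every HFD array lay below every ND array, against 12.9% of all tested probe sets, and 11 of 34 had an unadjusted p under 0.05 against 20.8%.

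Ero1a, the disulfide-forming oxidase, read 9.21, 9.24 and 8.56 on ND and 7.51, 7.76 and 8.10 on HFD. The groups did not overlap, and the third ND array, low in Cd68, was the lowest of its group. Ero1a fell by 1.22 ± 0.24 on the log2 scale (SE, n = 3 per group, limma adjusted p = 0.0209), or 2.32-fold. Ndrg1, the growth regulator, read 9.41, 9.26 and 8.50 on ND and 7.46, 7.29 and 7.94 on HFD, again without overlap. It fell by 1.49 ± 0.34 (adjusted p = 0.0366), or 2.82-fold. Slc16a1, the lactate carrier whose promoter is printed above, read 8.70, 8.66 and 8.53 on ND and 7.89, 7.98 and 8.21 on HFD. In both diets its arrays ran in the order of their Cd68 values. It fell by 0.60 ± 0.15 (adjusted p = 0.0463), or 1.52-fold. Leaving out ND 2-month replicate 1 or 2, or HFD 2-month replicate 1 or 2, left 0 genes past the threshold, and leaving out HFD 2-month replicate 3 gave 5.

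Genes just short of the threshold followed. Adm, the vasodilator peptide gene, read 9.78, 9.37 and 9.41 on ND and 5.98, 7.16 and 8.61 on HFD, with no overlap. Its log2 fold change was -2.27 ± 0.60 (adjusted p = 0.0592). Hk1 was the gene that followed Cd68 least, yet its arrays did not overlap either, with 8.81, 8.91 and 8.77 on ND and 8.40, 8.32 and 8.54 on HFD. Its log2 fold change was -0.41 ± 0.12 (adjusted p = 0.0847). Aldoc read 8.69, 8.38 and 8.10 on ND and 5.68, 6.11 and 7.85 on HFD (-1.84 ± 0.60, adjusted p = 0.107). The remaining genes without overlap were Bnip3l (-0.54 ± 0.20, adjusted p = 0.157) and Kdm3a (-0.66 ± 0.27, adjusted p = 0.181).

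Genes with steep slopes on Cd68 had larger errors here. Slc2a1 stood at -1.05 ± 0.56 (adjusted p = 0.299), Pfkfb3 at -1.19 ± 0.68, Slc16a3 at -0.85 ± 0.96 and Egln3 at -2.64 ± 1.41, and the diets overlapped in each of them. By role, 1 of 3 transporters fell, 0 of 14 glycolytic enzymes, 0 of 3 regulatory enzymes, 0 of 2 oxygen sensors, 0 of 3 mitochondrial genes, 1 of 3 genes of collagen and folding, and 1 of 6 of stress and signalling.

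**Figure D4:**
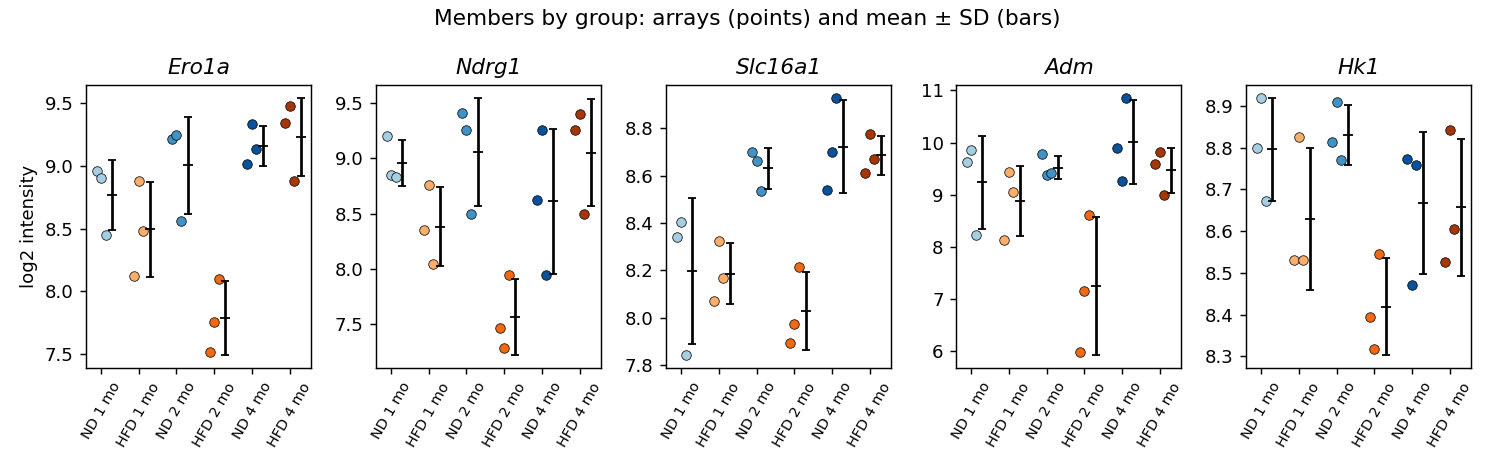
Points are single arrays and the bars beside them the mean ± SD (n = 3) of log2 intensity for Ero1a, Ndrg1, Slc16a1, Adm and Hk1 in the 6 groups, ND in blue and HFD in orange, each panel on an axis of its own that does not start at 0. In every panel the 3 HFD arrays at 2 months lie below the 3 ND arrays at 2 months, and at 4 months the diets overlap.

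Values of other genes were also compared between the diets at 2 months. Cd68 was 7.37 ± 1.95 (SD, n = 3) on HFD and 9.33 ± 2.32 on ND. All 26 macrophage and monocyte markers, Cd68 among them, were lower on HFD, with a median of -1.63 and 1 without overlap, and none passed. The cell cycle list mean was -0.74 ± 0.49 on HFD and 0.06 ± 0.26 on ND, and none of its 21 genes passed. All 21 were lower on HFD, with a median of -0.71. On 13 of them every HFD array lay below every ND array, against 12.9% of all tested probe sets. The stromal list mean was -0.29 ± 0.05 on HFD and 0.11 ± 0.10 on ND, and 2 of its 14 genes fell, the chemokine Cxcl12 by 3.20 ± 0.47 and the growth factor receptor Pdgfra by 1.08 ± 0.25. Among the other genes of the pathways, Bpgm, the red cell bisphosphoglycerate mutase, rose by 1.00 ± 0.24 (adjusted p = 0.0463) and the collagen lysyl hydroxylase Plod2 by 0.66 ± 0.13 (adjusted p = 0.0178). Errfi1, a feedback inhibitor of EGF receptors, fell by 1.82 ± 0.42 (adjusted p = 0.04). None of 8 HIF regulators passed; Epas1 stood at -1.82 ± 0.50 (adjusted p = 0.0674). All 5 tested adipocyte genes were lower on HFD, with a median of -1.13, and none passed. Only Cd68 was entered as a covariate, and the part of the stromal, adipocyte and cell cycle values in the falls of Ero1a, Ndrg1 and Slc16a1 was not tested.

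With Cd68 as a covariate, the diet effect on the genes at 2 months was smaller. Their median went from -0.62 to -0.26, 27 of 34 were below 0 and 1 passed, against 1.93% of all tested probe sets. That gene was Ero1a, at -0.98 ± 0.19 (adjusted p = 0.02). Ndrg1 stood at -1.22 ± 0.30 (adjusted p = 0.0551), Slc16a1 at -0.50 ± 0.14 (adjusted p = 0.0856) and Adm at -1.87 ± 0.58 (adjusted p = 0.114). Slc2a1 went from -1.05 ± 0.56 to -0.34 ± 0.28.

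**Figure D5:**
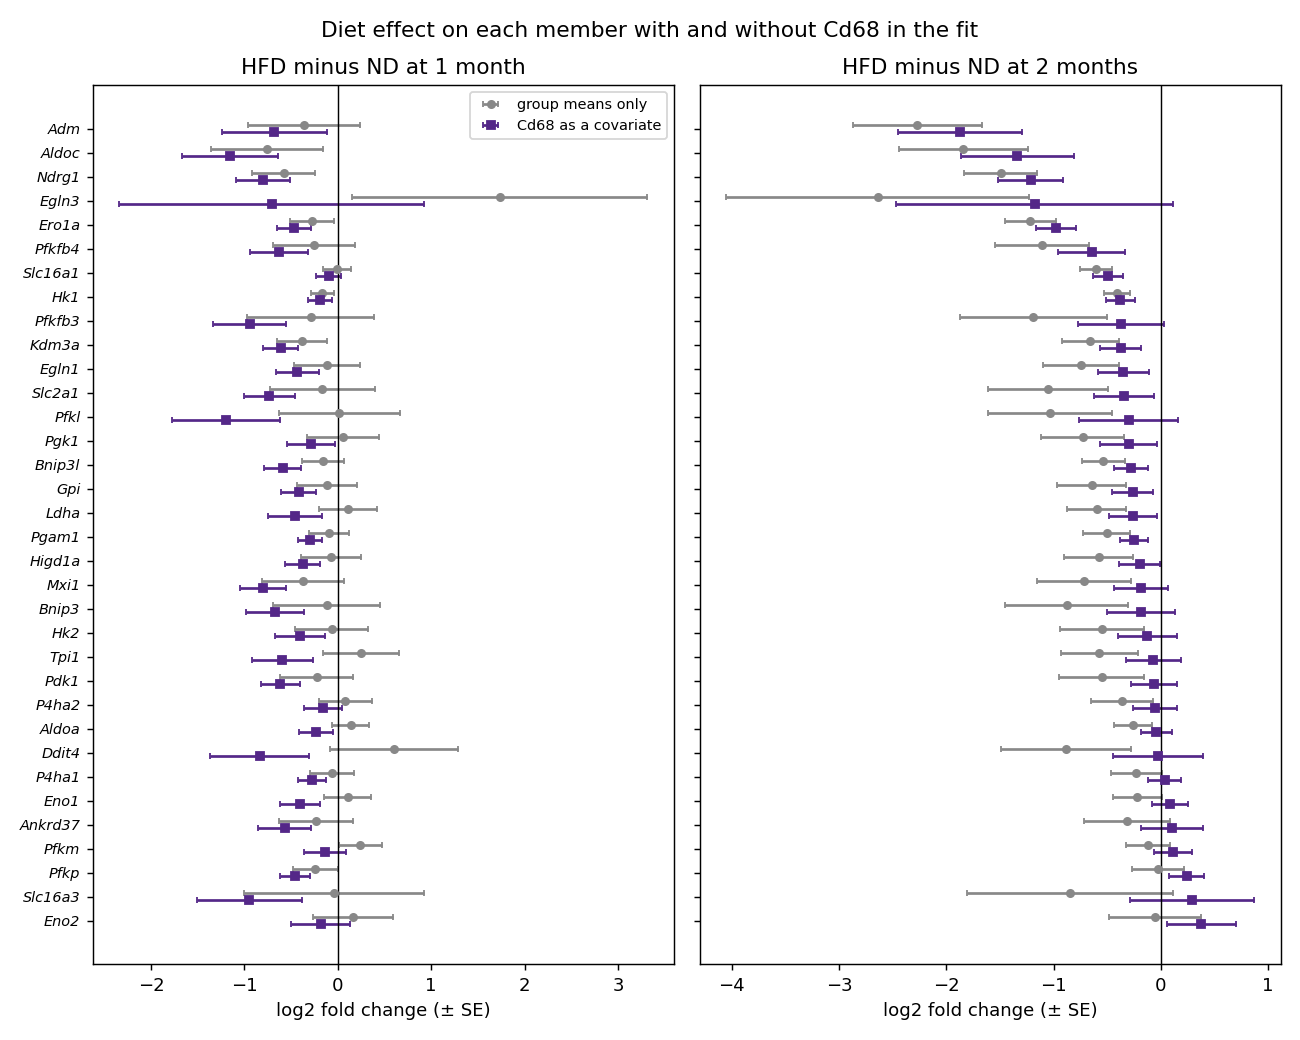
Log2 fold changes of HFD over ND (± SE) for each of the 34 genes at 1 month (left) and 2 months (right), from the fit of group means alone (grey circles) and with Cd68 as a covariate (purple squares). At 2 months the median moves from -0.62 to -0.26 and at 1 month from -0.10 to -0.52.

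At 1 month of feeding no gene passed in limma, and 0% of all tested probe sets did. No gene of the 34 had an unadjusted p under 0.05, against 9.77% of all probe sets, and 23 were lower on HFD, with a median of -0.10. These figures mix genes fitted with and without ND 1-month replicate 1. The 9 genes that have no value on it were all higher on HFD except Bnip3l. Leaving out ND 1-month replicate 1, the ND array rich in Cd68, turned the median to 0.14, with 26 genes higher. With Cd68 as a covariate all 34 were below 0 with a median of -0.52 and 13 had an unadjusted p under 0.05, but 0 passed, where 0.17% of all probe sets did. Ndrg1, which fell at 2 months, read 9.20, 8.85 and 8.83 on ND and 8.35, 8.76 and 8.04 on HFD at 1 month. The groups did not overlap, which held downward for 1 of the 34 genes and 10.7% of all probe sets, and its log2 fold change was -0.58 ± 0.34 (adjusted p = 0.613).

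At 4 months no gene passed either, with 0% of all probe sets, 0 of 34 genes with an unadjusted p under 0.05 against 3.73%, and 29 of 34 higher on HFD by a median of 0.09. Ndrg1 stood at 0.44 ± 0.34 and Adm at -0.54 ± 0.60. With the 3 feeding times averaged, 0 of 34 genes and 2.82% of all probe sets passed, and 31 genes were lower on HFD with a median of -0.20. Ero1a was nearest the threshold at -0.47 ± 0.14 (adjusted p = 0.0775), followed by Adm at -1.06 ± 0.35 (adjusted p = 0.101). With Cd68 as a covariate Ero1a passed (-0.47 ± 0.10, adjusted p = 0.0239), as did 5.47% of all probe sets.

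Whether the diet effect differs between feeding times was tested by an F test, and 0 of 34 genes and 0% of all probe sets passed. Ndrg1, Ero1a, Slc16a1 and Aldoc had unadjusted p under 0.05, 4 of 34 genes against 6.74% of all probe sets, with the lowest adjusted p at 0.524 for Ndrg1. The falls at 2 months are therefore not shown to differ from the values at 1 and 4 months.

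Between 1 and 4 months of feeding the genes were mostly higher at 4 months, and none passed in either diet, where 0% of all probe sets did. On ND 30 of 34 were higher, with a median of 0.40 and 3 genes with an unadjusted p under 0.05 against 9.39% of all probe sets. On HFD 34 of 34 were higher, with a median of 0.59 and 8 genes with an unadjusted p under 0.05 against 7.92%. Slc16a1 was nearest in both diets, at 0.53 ± 0.15 on ND (adjusted p = 0.369) and 0.50 ± 0.15 on HFD (adjusted p = 0.42). Its arrays at 1 month read 8.34, 8.41 and 7.84 on ND and 8.07, 8.32 and 8.17 on HFD, and those at 4 months 8.54, 8.70 and 8.93 on ND and 8.61, 8.77 and 8.67 on HFD, so within each diet the feeding times did not overlap. On ND 9 genes had no overlap upward, against 4.12% of all probe sets, and on HFD 5 genes against 8.64%. Of the 9, Aldoa, Ddit4, Egln3, Eno1, Ldha, Pfkl and Tpi1 have no value on ND 1-month replicate 1, the array of that group rich in Cd68. Their ND values at 1 month rest on 2 arrays, both low in Cd68. Only 1066 of the 21729 tested probe sets lack that value, so 4.12% is not a like background for these genes. Cd68 was also higher at 4 months, at 9.87 ± 0.86 (SD, n = 3) on ND and 10.11 ± 0.24 on HFD, against 7.22 ± 3.11 and 8.79 ± 1.09 at 1 month. With Cd68 as a covariate the ND median turned to -0.17, with 29 genes lower, and the HFD median was 0.31.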

How the data were processed

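The deposited table gives 1 linear intensity per probe set and array, which the authors made with RMA per the submitters' processing notes (no version given). Log2 of each deposited intensity was taken. The column of ND 1-month replicate 1 was moved down by 1343 rows, after which it correlated with the average remaining array at 0.990 rather than 0.0909. Of 31099 probe sets, 57 controls and the dimmest 30% by mean log2 were left out, leaving 21729. The platform annotation gave 1 symbol for 20832 probe sets, several for 436 and none for 9831. For 20764 of those with 1 symbol, the name used was the RefSeq symbol of the annotated gene identifier. The platform symbol was used for the others.

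A model with 1 mean per group, or those means and a slope on Cd68, was fitted to the 18 arrays in limma 3.58.1 (R 4.3.3), with two-sided tests and Benjamini-Hochberg adjustment over all tested probe sets at 0.05. Both fits and the permutation test were tested on simulated data. Genes with full statistics are those that passed or had the largest absolute moderated t among the list. The list and all gene lists were chosen with earlier results of these data known. Over 45 pairs of arrays sharing a replicate number, residuals correlated at -0.0254 on average, and at over 0.1 in 12 pairs, so the numbers were not treated as pairs. The 3 arrays per group limit the precision.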

Additional observations from a re-analysis of the deposited data

How the results depend on the processing

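The number of genes that rose with Cd68 (27 of 34) ran from 14 to 28 when each array was left out in turn. It was 15 with Ptprc in place of Cd68, 19 with the replicate number as a block and 30 with no group term. In these 3 settings calls among all probe sets went from 3166 to 2136, 1871 and 3936. Under the other planned settings 26 to 28 genes rose. The number was 0 with ND 1-month replicate 1 left out together with ND 2-month replicate 3. That setting, chosen after seeing the data, took calls among all probe sets from 3166 to 302. All 34 slopes were positive with the block, Ptprc, the macrophage list mean, quantile normalization, the cell cycle covariate and no group term, and without either or both of these 2 arrays. For the correlation 12 passed instead of 30 after centring within groups. At 2 months of HFD 3 genes fell in the reported fit, 0 to 5 with 1 array left out, 20 with array weights, 1 with Cd68 as a covariate, 0 with only the compared arrays, 2 with the replicate block and 7 without the same 2 arrays. Calls among all 21729 probe sets moved too, from 552 to 4330 with array weights and to 1319 without the 2 arrays. Quantile normalization moved the share of higher calls among all probe sets at 2 months from 48.7% to 59.7%, and median centring moved it to 37.8%. For the average over times 0 became 4 with array weights (3317 of all probe sets, from 612), 1 with Cd68 as a covariate and 0 to 1 with 1 array left out, and for 4 against 1 month on HFD 0 became 5 with array weights (434 of all probe sets, from 0). The causes of these moves were not tested. No single value that passed reversed its direction.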

Other observations

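The other probe sets of the same genes were not used above. There were 13 of them among the tested ones, for 13 genes; 10 had a positive slope on Cd68, of which 7 passed, and 10 were lower on HFD at 2 months, of which 2 passed. Those were the second probe sets of Ero1a (-1.26 ± 0.25, adjusted p = 0.0218) and Ndrg1 (-1.01 ± 0.25, adjusted p = 0.0486). The dimmer probe sets of Egln1, Pfkfb3 and Hk1 had slopes of -0.03, -0.06 and -0.03, against 0.20, 0.42 and 0.02 for the brighter ones, and none of these 3 dimmer slopes passed. The same 3 dimmer probe sets were higher on HFD at 2 months, and none passed. Their log2 fold changes were 0.38 ± 0.10 (Egln1, limma adjusted p = 0.0609), 0.22 ± 0.16 (Pfkfb3) and 0.12 ± 0.16 (Hk1). For that Egln1 probe set every HFD array lay above every ND array at each feeding time.

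The slopes of 2 pairs of related proteins are set side by side. Slc16a3 and Slc16a1, both lactate carriers, had slopes on Cd68 of 0.58 ± 0.10 and 0.05 ± 0.02, and Hk2 and Hk1, both hexokinases, 0.22 ± 0.05 and 0.02 ± 0.02. Slc16a1 and Hk1 were among the 8 genes without overlap between diets at 2 months, while Slc16a3 and Hk2 were not. The differences between the members of a pair were not tested, and the pairs were chosen after their values were seen.

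Gapdh, the glyceraldehyde phosphate dehydrogenase of glycolysis, was present only as 3 array control probe sets, which read between 11.77 and 12.52 over the 18 arrays and were not tested.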
